A study of Arabidopsis thaliana with 23 samples.

Results

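AT4G30450 and AT4G30460 are protein-coding genes that stand next to each other on chromosome 4 of Arabidopsis thaliana, with no other gene between them in the TAIR10.1 gene table. They were taken as a pair of neighbouring glycine-rich protein genes, a name that the gene tables used here neither give nor contradict, since both genes carry only a locus code there. Each was measured by a single probe set of the Affymetrix ATH1 array, 253629_at for AT4G30450 and 253619_at for AT4G30460, and these 2 are the members described, of 22810 probe sets on the array. Both were among the 15922 probe sets tested. Averaged over all arrays, the signal of AT4G30450 was 814, above 73.4% of tested probe sets, and that of AT4G30460 was 324, above 44.5%. The members were chosen with earlier results in view. AT4G30450 was singled out by its lower signal with 1 µM IAA, and AT4G30460 by opposite changes with 1 µM IAA and with PEO-IAA. Every comparison of replicates 1 to 3 is therefore given as values without a test. The arrays of replicates 4 and 5, which those contrasts did not use, were tested.

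The series measured RNA of whole Col-0 seedlings on 23 arrays. Seedlings spent 6 or 7 days on agar and 1 day in shaken liquid medium before a treatment of 3 h. Replicates 1 to 3, with 3 arrays a group, comprised mock, IAA at 1 µM, kynurenine at 30 µM, PEO-IAA at 10 µM, and the same PEO-IAA dose together with 1 µM IAA. Replicates 4 and 5, with 2 arrays a group, comprised mock, IAA at 100 nM, PPBo at 10 µM, and the same PPBo dose together with, as labelled, 1 µM IAA. The dose of IAA given alone thus differed between the sets. The labels do not say whether replicates were separate cultures, and p-values then measure only how far these samples, possibly technical repeats, lay apart.

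IAA is the main natural auxin. It is bound by the TIR1/AFB receptors together with Aux/IAA repressors, which are then degraded, so that auxin response factors can act on their target genes. Kynurenine inhibits the TAA1 family of tryptophan aminotransferases, PPBo inhibits the YUCCA monooxygenases that complete IAA synthesis, and PEO-IAA antagonises the receptors. Glycine-rich proteins are a mixed group defined by long glycine-rich stretches. Some are structural proteins of the cell wall and others bind RNA. Sequences of the members were not used here, so neither their glycine content nor a possible cross-hybridisation between their probes was examined.

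GH3.3 (AT2G23170), an early auxin-induced gene whose enzyme conjugates IAA to amino acids, serves as a reading of auxin response in each group. Its mean signal was 317 in mock replicates 1 to 3, 13945 with 1 µM IAA, 40.2 with kynurenine, 64.8 with PEO-IAA and 11310.2 with PEO-IAA plus IAA. In replicates 4 and 5 it was 429 in mock, 8613 with 100 nM IAA, 10.9 with PPBo and 8290 with PPBo plus IAA. Tissue markers of the shoot and of the root were both bright on every array: RCA (AT2G39730), the activase of Rubisco, ranged from 12865 to 19396 and the root β-glucosidase PYK10 (AT3G09260) from 12826 to 22086. The third 1 µM IAA array stood apart, with a 3′ to 5′ GAPDH signal ratio, which rises as RNA degrades, of 24.4 against 1.19 to 2.05 on the other 22 arrays, and results that rest on it are also given without it.

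Both genes were lowest with 1 µM IAA. AT4G30450 had signals of 854, 798 and 877 on the mock arrays of replicates 1 to 3 and of 271, 295 and 367 with 1 µM IAA. AT4G30460 had signals of 314, 282 and 326 in mock and of 130, 109 and 85.4 with 1 µM IAA. Every IAA array lay below every mock array for both genes, as it did for 7.94% of tested probe sets. The group means were 311 ± 50.004 (SD, n = 3) against 843 ± 40.7 (n = 3) for AT4G30450, and 108 ± 22.2 against 308 ± 22.96 for AT4G30460. The log2 changes were -1.43 ± 0.16 (SE) for AT4G30450 and -1.46 ± 0.15 for AT4G30460, with ratios of means of 0.369 and 0.352. The third IAA array was the highest of its group for AT4G30450 and the lowest for AT4G30460, and without it the changes were -1.55 ± 0.16 and -1.31 ± 0.14.

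**Figure D1:**
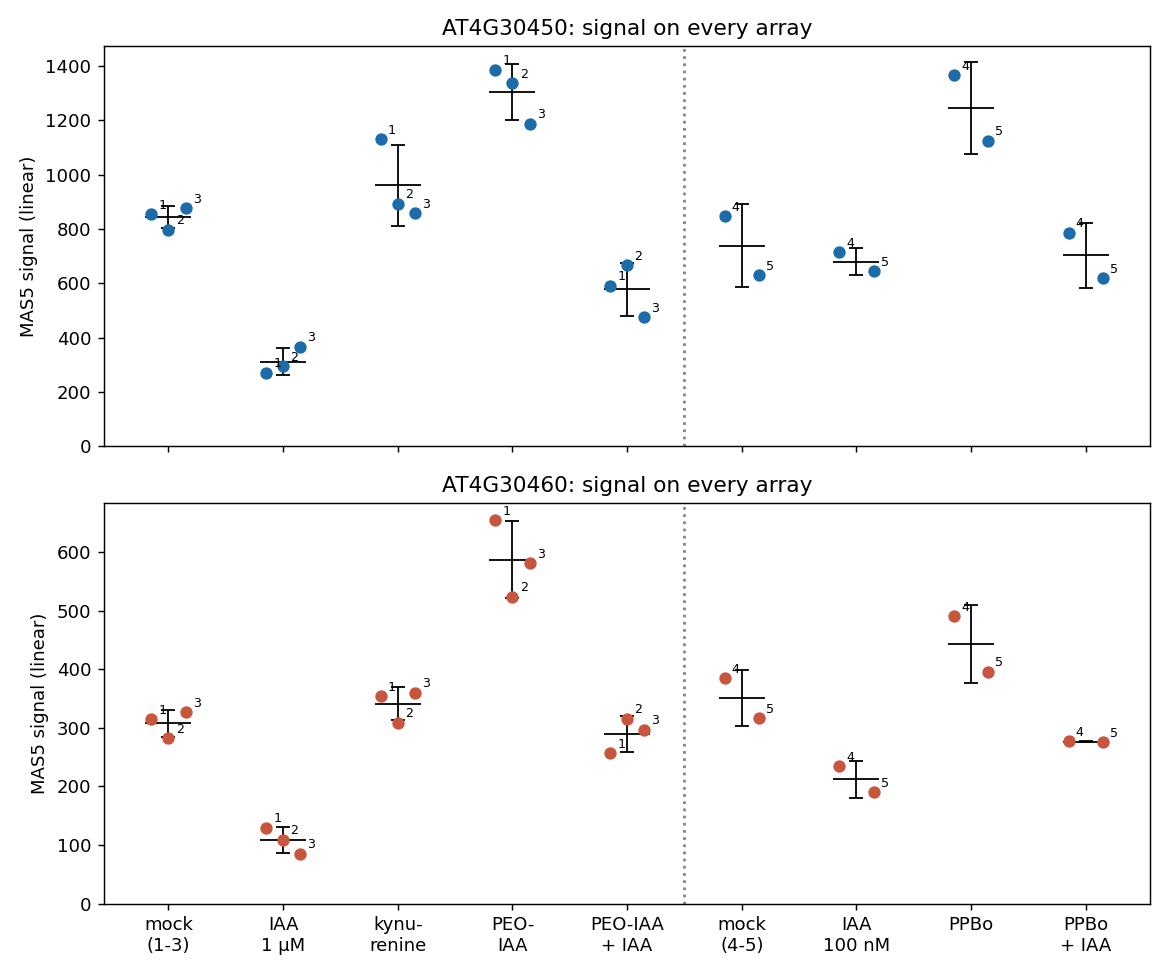
MAS5 signal (linear scale) of AT4G30450 (upper panel) and AT4G30460 (lower panel) on all 23 arrays by group, with replicate numbers beside the points. Bars are means ± SD and the dotted line parts replicates 1 to 3 from 4 and 5. Within replicates 1 to 3 both genes were lowest with 1 µM IAA (means of 311 and 108) and highest with PEO-IAA (1304 and 586).

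Within replicates 1 to 3 both genes were highest with the receptor antagonist PEO-IAA. On its 3 arrays AT4G30450 had signals of 1387, 1338 and 1188, a log2 change of 0.62 ± 0.16 against mock. AT4G30460 had signals of 655, 524 and 581, a log2 change of 0.91 ± 0.15. All PEO-IAA arrays lay above all mock arrays for both genes, as they did for 6.12% of tested probe sets. Set against the mock array of the same replicate number, AT4G30450 differed by 0.69, 0.74 and 0.43 and AT4G30460 by 1.04, 0.88 and 0.82 on the log2 scale. The expansin genes EXPA7 (AT1G12560) and EXPA18 (AT1G62980), which mark root hairs, had a median log2 change of -1.91 with PEO-IAA. Their median was -0.48 with 1 µM IAA, -0.17 with kynurenine and -0.54 with 100 nM IAA, the last uncalled for both expansins. RCA and PYK10 were at 0.17 and 0.00 with PEO-IAA. The part of cell composition in these values was not tested, and in RNA of whole seedlings fewer cells of a type and less RNA per cell cannot be told apart.

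With PEO-IAA plus IAA both genes were lower than with PEO-IAA alone. AT4G30450 had signals of 591, 667 and 475 with both compounds, all below its mock arrays (5.45% of tested probe sets), and AT4G30460 had signals of 256, 315 and 297, which overlapped its mock arrays. Against PEO-IAA alone the log2 changes were -1.17 ± 0.16 for AT4G30450 and -0.999 ± 0.15 for AT4G30460, with no overlap for either gene (5.97% of tested probe sets). Against mock they were -0.55 ± 0.16 and -0.09 ± 0.15. Seen from the other side, both genes were higher with IAA and PEO-IAA than with IAA alone, by 0.88 ± 0.16 and 1.37 ± 0.15 (no overlap for either, 4.99% of tested probe sets), or by 1.00 ± 0.16 and 1.22 ± 0.14 without the third IAA array. In that comparison the 6 early auxin-induced genes used as a reading lay between -1.23 and -0.30, GH3.3 being nearest to 0, with a median of -0.88 and 0 of 6 higher. Against PEO-IAA alone the root hair markers EXPA7 and EXPA18 were at 1.76 ± 0.39 and 1.17 ± 0.22, and their part in the values was not tested. These comparisons share arrays with each other and with those that chose the genes.

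With kynurenine both genes overlapped mock. AT4G30450 had signals of 1132, 894 and 858, a log2 change of 0.18 ± 0.16, with the first array farthest above mock. Without that array the change was 0.05. AT4G30460 had signals of 354, 309 and 360, a log2 change of 0.14 ± 0.15. Set against the mock array of the same number, AT4G30460 differed by 0.17, 0.13 and 0.14 on the log2 scale, and AT4G30450 by 0.40, 0.16 and -0.03. GH3.3 was at -2.97 ± 0.42 on the same arrays.

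**Figure D2:**
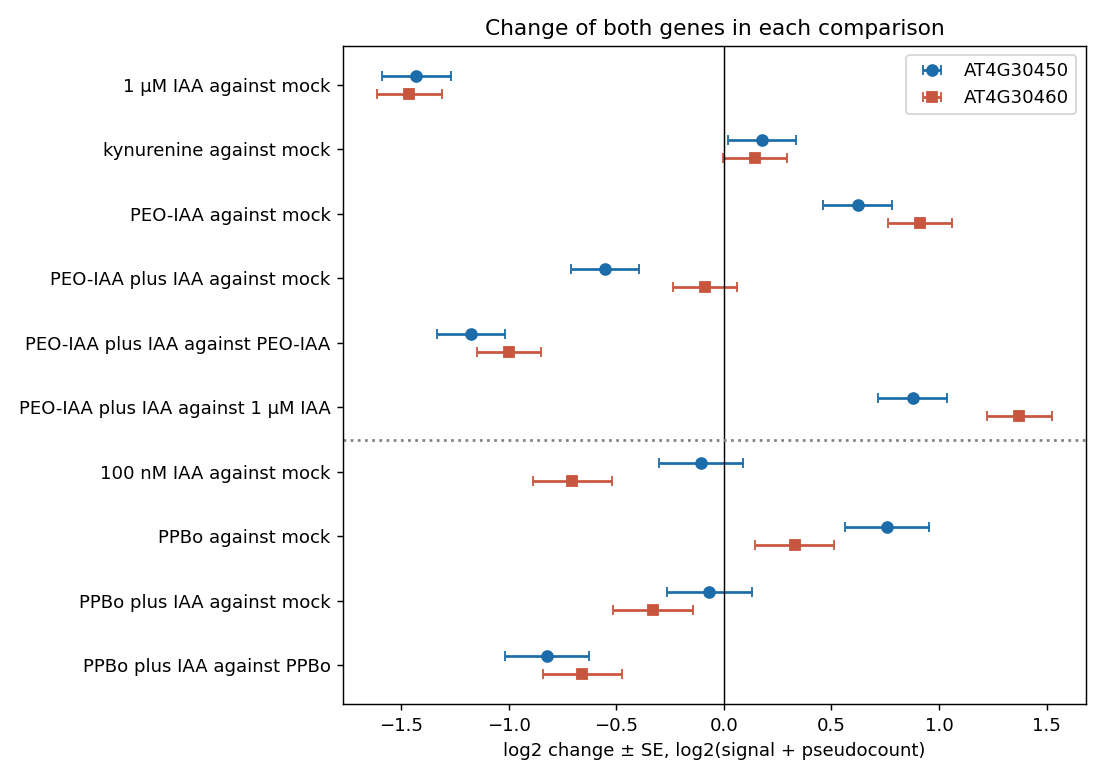
Log2 change ± SE of AT4G30450 (circles) and AT4G30460 (squares) in 10 comparisons, on the scale of log2(signal + 7.56). Comparisons above the dotted line used replicates 1 to 3 and are described without a test, and those below used replicates 4 and 5. With 1 µM IAA the values were -1.43 and -1.46. With PEO-IAA they were 0.62 and 0.91.

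In replicates 4 and 5, 4 comparisons were tested for both genes, 8 tests in all. With limma and Benjamini-Hochberg adjustment over all 15922 probe sets, 0 of the 8 passed an adjusted p of 0.05, while 4 had an unadjusted p below 0.05. The tests are not independent. Comparisons against mock share the mock arrays, and the rise with PPBo and the fall on adding IAA to it share the PPBo arrays. Over all probe sets the adjusted threshold was passed by 0.358% with 100 nM IAA, 0.364% with PPBo, 0.98% with PPBo plus IAA against mock and 0.653% with PPBo plus IAA against PPBo. The unadjusted threshold was passed by 3.92%, 5.17%, 5.9% and 5.09% in the same order. With 2 arrays a group, groups that do not overlap are common, with between 19.4% and 24.3% of probe sets in each direction.

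With 100 nM IAA the arrays of AT4G30460 were parted from mock and those of AT4G30450 were not. AT4G30460 had signals of 385 and 317 on the mock arrays and of 235 and 190 with 100 nM IAA, so that both treated arrays lay below both mock arrays (20.3% of probe sets). Its log2 change was -0.70 ± 0.18, with a 95% interval from -1.09 to -0.32 (unadjusted p = 0.00115, adjusted p = 0.187, limma). AT4G30450 had signals of 847 and 631 in mock and of 714 and 644 with 100 nM IAA, which overlapped. Its log2 change was -0.11 ± 0.20, with an interval from -0.52 to 0.30 (adjusted p = 0.99994). GH3.3 rose by 4.31 ± 0.52 on these arrays (adjusted p = 0.000309). The 1 µM and 100 nM doses were given in different replicate sets, and no test between them was made.

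Within replicates 4 and 5 both genes were highest with PPBo. AT4G30450 had signals of 1367 and 1125 with PPBo, above both mock arrays (22% of probe sets). The log2 change was 0.76 ± 0.20, with an interval from 0.35 to 1.17 (unadjusted p = 0.00105, adjusted p = 0.148, limma). AT4G30460 had signals of 491 and 396, also above both mock arrays, and its log2 change was 0.33 ± 0.18, with an interval from -0.06 to 0.71 (adjusted p = 0.99997), and 0.18 without PPBo replicate 4 or 0.19 without mock replicate 5. GH3.3 fell with PPBo (adjusted p = 0.000132), to a signal of 10.9 that is close to the pseudocount of 7.56, so that the size of its change is not exact.

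On adding IAA to PPBo, both genes were lower than with PPBo alone by values that missed the adjusted threshold. AT4G30450 had signals of 787 and 618 with both compounds, below both PPBo arrays (19.4% of probe sets), a log2 change of -0.82 ± 0.20 with an interval from -1.23 to -0.41 (unadjusted p = 0.000485, adjusted p = 0.0677, limma). AT4G30460 had signals of 277 and 275, also below both PPBo arrays, a log2 change of -0.66 ± 0.18 with an interval from -1.04 to -0.27 (unadjusted p = 0.00203, adjusted p = 0.176). Against mock, AT4G30450 was at -0.07 ± 0.20 (interval from -0.48 to 0.34) and AT4G30460 at -0.33 ± 0.18 (interval from -0.71 to 0.06; -0.19 without mock replicate 4; both treated arrays below mock, 20.3% of probe sets), both at an adjusted p of 0.99994. On the same arrays the root hair markers EXPA18 and EXPA7 were at -1.18 (adjusted p = 0.0441) and -1.05 against mock, and with PPBo alone they were at -0.48 and -0.86; their part in the values was not tested. GH3.3 rose on adding IAA to PPBo (adjusted p = 1.12e-08), by a size that depends on the pseudocount.

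These 4 values, AT4G30450 with PPBo and on adding IAA to PPBo, and AT4G30460 with 100 nM IAA and on adding IAA to PPBo, passed the adjusted threshold when the fit held the arrays of replicates 4 and 5 alone. Their adjusted p-values were then 0.0267, 0.0145, 0.0376 and 0.0447. Over all alternatives their adjusted p-values ran from 0.0113 to 0.99998, from 0.00798 to 0.864, from 0.00172 to 0.9999 and from 0.0286 to 0.99993, the highest of each with 1 array left out. That fit called more probe sets as a whole, 2.46% with PPBo, 2.57% on adding IAA to PPBo and 1.95% with 100 nM IAA. The SE of AT4G30450 was 0.20 in the fit of all arrays. It was 0.18 without the third 1 µM IAA array and 0.16 with replicates 4 and 5 alone. The changes themselves were the same in all 3 by construction, since arrays of other groups do not enter a difference of group means.

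The order of the groups by mean signal was similar in outline for both genes and differed in its middle. For AT4G30450 it ran from 1 µM IAA (311) through PEO-IAA plus IAA (578), 100 nM IAA (679), PPBo plus IAA (703), mock replicates 4 and 5 (739), mock replicates 1 to 3 (843), kynurenine (961) and PPBo (1246) to PEO-IAA (1304). In that order the 1 µM IAA group alone was parted from its neighbour, and all later neighbours overlapped. For AT4G30460 it ran from 1 µM IAA (108) through 100 nM IAA (212), PPBo plus IAA (276), PEO-IAA plus IAA (290), mock replicates 1 to 3 (308), kynurenine (341), mock replicates 4 and 5 (351) and PPBo (443) to PEO-IAA (586). The first 2 and the last 2 of these groups were each parted from their neighbours, while the 5 groups from PPBo plus IAA to mock replicates 4 and 5 overlapped from one to the next. Levels in this order are set across both replicate sets, which cannot be told apart from treatments that were given in 1 set alone.

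How far the genes differed in response was read from the log2 ratio of their probe sets within an array, which shows unequal change and not a level of one gene against the other. The change of AT4G30460 minus that of AT4G30450 was -0.03 ± 0.20 with 1 µM IAA, -0.03 ± 0.20 with kynurenine, 0.29 ± 0.20 with PEO-IAA and 0.46 ± 0.20 with PEO-IAA plus IAA, each against mock. The ratios of the groups did not overlap in the last 2 of these. How many other pairs of genes part in this way was not counted. These comparisons also share arrays with those that chose the genes. It was 0.50 ± 0.20 for PEO-IAA plus IAA against 1 µM IAA, where they overlapped. In replicates 4 and 5 the difference in change was -0.60 ± 0.25 with 100 nM IAA and -0.43 ± 0.25 with PPBo. It was -0.26 ± 0.25 with PPBo plus IAA against mock and 0.16 ± 0.25 on adding IAA to PPBo. The exact two-sided permutation p was 0.333 for each of the first 3, the smallest that 2 arrays against 2 allow, and 0.667 for the last, so this permutation could not reach 0.05. In the 3 comparisons against mock of replicates 4 and 5, the ratio was highest in mock, at -1.12 and -0.98, which all 3 differences share.

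**Figure D3:**
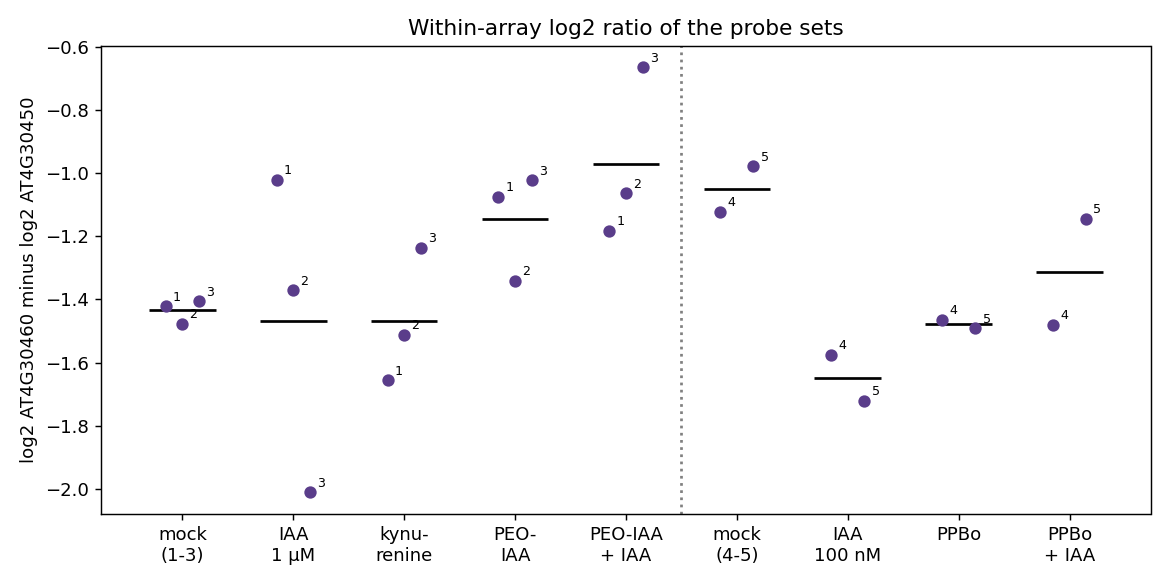
Log2 signal of AT4G30460 minus log2 signal of AT4G30450 within each array, by group, with replicate numbers beside the points and group means as bars. In mock replicates 4 and 5 the ratios were -1.12 and -0.98, against -1.57 and -1.72 with 100 nM IAA. The 1 µM IAA arrays spread from -1.02 to -2.01, the third array being the lowest.

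Variation within groups was compared apart from the treatments. Deviations of the log2 signals from the group means correlated between the genes with a Pearson r of 0.10 and a Spearman rho of 0.17 over 23 arrays, and with 0.43 and 0.49 over 22 arrays without the third 1 µM IAA array. Among 2938 pairs of next-neighbour protein-coding genes with 1 tested probe set each, the median r was 0.03, with quartiles of -0.25 and 0.32, and 43.3% of the pairs reached the value of this pair. Without the third array 15% of pairs did. These points share arrays and their overall quality, and in groups of 2 the deviations mirror each other. In all 4 groups of replicates 4 and 5, replicate 4 was above replicate 5 for both genes. The share of all probe sets with this order was not counted.

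**Figure D4:**
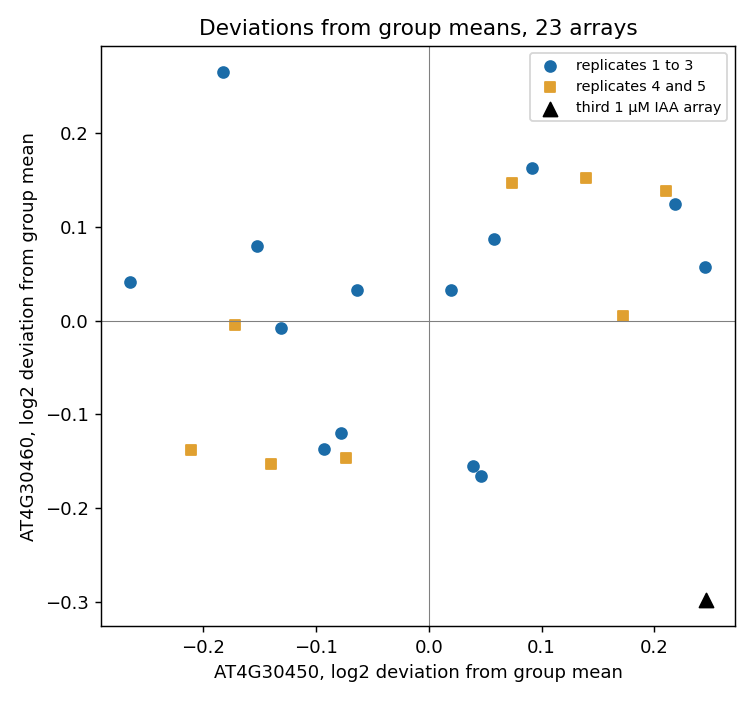
Log2 deviation of each array from its group mean, AT4G30450 on the horizontal and AT4G30460 on the vertical axis. Pearson's r was 0.10 over 23 arrays, and 0.43 over 22 arrays without the third 1 µM IAA array (triangle), with group means taken anew.

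The tested genes around the pair lay closer to 0 with 1 µM IAA. The members were chosen by their changes with this treatment, so that difference is no result of its own. Of the 10 other loci from AT4G30400 to AT4G30510, 5 had a probe set that named them and 4 were tested. GAE1, the next gene on the side of AT4G30450, had no probe set under its name here. With 1 µM IAA the 4 tested neighbours lay between -0.13 and 0.04, with a median of -0.04 against -0.00 over all tested probe sets, while the members were at -1.43 and -1.46. AT4G30470, the next gene on the side of AT4G30460, was at 0.04 ± 0.12 with 1 µM IAA and at 0.19 ± 0.12 with PEO-IAA. With PPBo it was at -0.39 ± 0.15 (adjusted p = 0.625) and on adding IAA to PPBo at 0.45 ± 0.15 (adjusted p = 0.382), each opposite in sign to the members and uncalled. AT4G30490 was the neighbour with the highest value with PEO-IAA, 0.50 ± 0.20, and was at -0.13 ± 0.20 with 1 µM IAA. In the 4 tested comparisons 0 of the 4 neighbours passed in either direction.

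**Figure D5:**
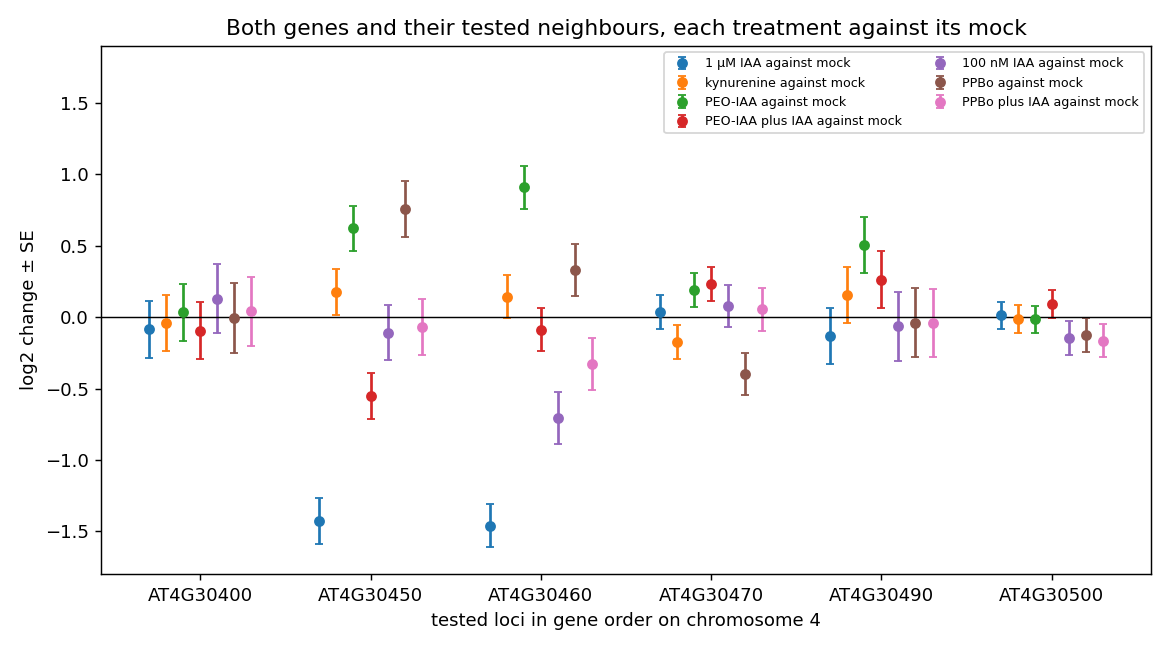
Log2 change ± SE of AT4G30450, AT4G30460 and the 4 tested loci around them, in gene order on chromosome 4, for each of 7 treatments against the mock of its own replicate set. With 1 µM IAA, the treatment by which the members were chosen, they lay at -1.43 and -1.46 and the 4 neighbours between -0.13 and 0.04.

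A list of 42 other glycine-rich protein loci, drawn up from general knowledge because the gene tables hold no descriptions, had 21 loci with a named probe set and 18 tested. With 1 µM IAA their log2 changes ranged from -0.40 to 0.53, with a median of 0.06 against -0.00 over all tested probe sets. With PEO-IAA they ranged from -0.84 to 0.60, with a median of 0.13. In the 4 tested comparisons 0 of the 18 passed in either direction. The medians there were -0.01 with 100 nM IAA, 0.11 with PPBo, 0.04 with PPBo plus IAA and -0.05 on adding IAA to PPBo, against 0.02, 0.01, 0.01 and -0.00 over all tested probe sets. The widest values belonged to the dim AT1G02710, at 1.27 ± 0.65 with 100 nM IAA (adjusted p = 0.99994) and 1.87 ± 0.65 with PPBo plus IAA (adjusted p = 0.368), and AT1G75550 was lowest with 100 nM IAA at -0.75 ± 0.24 (adjusted p = 0.506).

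Known auxin-induced genes were read on the same arrays. Their list was drawn up with earlier results of these data known, so the counts below describe the arrays and are no independent result. All 6 early auxin-induced genes used as a reading had higher values with 100 nM IAA, and 3 passed an adjusted p of 0.05, as did 0.201% of all tested probe sets in that direction. With PPBo all 6 had lower values and 3 passed (0.258%), and on adding IAA to PPBo all 6 had higher values and 5 passed (0.452%). HAT2 (AT5G47370), a homeodomain-leucine zipper factor, was at 0.97 ± 0.22 with 100 nM IAA (adjusted p = 0.0734) and at -1.60 ± 0.22 with PPBo (adjusted p = 0.00132). IAA29 (AT4G32280), an Aux/IAA repressor, was at -1.48 ± 0.30 with PPBo (adjusted p = 0.0345). LBD29 (AT3G58190), a LOB-domain regulator known from lateral root initiation, was higher by 3.46 ± 0.57 with 100 nM IAA (adjusted p = 0.00475). GH3.5 (AT4G27260, listed as WES1) rose by 2.34 ± 0.34 (adjusted p = 0.0015), and LBD16 (AT2G42430) was at 0.30 ± 0.41 (adjusted p = 0.99994).

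Likeness was measured as Pearson's r over the 18 treated arrays of the log2 signal minus the mean of the mock arrays of the same set, among 8678 probe sets naming 1 gene. The arrays of a set share their mock arrays, and 12 of the 18 are of replicates 1 to 3, whose values chose the members, so the place of the members in each other's list is no result of its own. For AT4G30450 the most alike were AT3G18280 (r = 0.93), AT4G02850 (0.92), BCAT4 (AT3G19710, 0.88), AT3G45680 (0.88) and AT1G27030 (0.87). BCAT4 encodes the aminotransferase that starts methionine chain elongation for glucosinolates. For AT4G30460 they were AT4G30170 (0.89), AT4G30450 itself (0.85), AT3G27880 (0.85), MMP (AT1G70170, 0.84) and AT4G31470 (0.84). Their order depends on the third 1 µM IAA array. Leaving it out gave 0.87, 0.84, 0.79, 0.81 and 0.93 in the same order of genes. AT4G30460 was place 11 in the list of AT4G30450. Without the third 1 µM IAA array the pair had an r of 0.84, and the places were 13 and 12. Over the 6 treated arrays of replicates 4 and 5 alone, the r was 0.92 and each gene was place 95 or 104 in the list of the other.

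The genes most like AT4G30450 differed from it in the size of their changes. AT3G18280 was at -0.59 with 1 µM IAA, 0.44 with PEO-IAA and 0.34 with PPBo on the log2 scale. AT3G45680 was at -0.68, 1.18 and 0.94 in the same comparisons. BCAT4 was at -1.27, 0.02 and 0.25, and AT4G02850 at -1.56, 0.12 and 0.09. With 100 nM IAA BCAT4 was at -0.08 and AT4G02850 at -0.51. Among those most like AT4G30460, AT4G30170 was at -1.88 with 1 µM IAA, -0.07 with PEO-IAA and -1.32 with 100 nM IAA. AT4G31470 was at -1.46, 1.67 and -0.62 in these comparisons, and MMP at -1.13, 0.90 and -0.47.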

How the data were processed

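RNA of whole seedlings was hybridised to 1 ATH1 array per sample, 23 in all, in 9 groups. The deposited intensity values are MAS5 probe set signals on a linear scale, per the submitters' processing notes, which give no version. The 2% trimmed mean lay between 500.04 and 500.05 on every array, so no scaling was added. Detection calls were not used here, and the number of arrays limits the precision. Gene names came from the platform annotation and the TAIR10.1 gene table: 13513 probe sets had 1 gene, 503 several and 8794 none here, and 13436 matched the table.

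Signals were taken to log2(signal + 7.56), 7.56 being the 10th percentile of all values, which understates changes of dim probe sets. After removal of 64 controls, the 15922 probe sets with a mean above the 30th percentile were fitted in limma (version 3.58.1 under R 4.3.3, with a trended eBayes prior) as 9 group means with 14 residual degrees of freedom. The Benjamini-Hochberg adjustment ran over all tested probe sets of a contrast. The fit was tested on simulated data.

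The members and lists were chosen with earlier results of these data known. Named were the members, the auxin-induced genes used as a reading, called or extreme members of the neighbour and glycine-rich lists, and the 5 probe sets most like each member. Tissue marker lists were sparse: 1 of 5 shoot, 1 of 3 root, 2 of 2 root hair and 0 of 4 pollen and seed markers had a named probe set. Promoter and protein sequences were planned and not used here.

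Same-numbered arrays were checked for pairing by the correlation of their deviations from the group means. In replicates 1 to 3, 18 of 30 pairs exceeded 0.1, and the other 12 all held a 1 µM IAA array, so the numbers pair the samples of the other 4 groups. In replicates 4 and 5 the values ranged from 0.03 to 0.17, and nothing in the labels pairs them. Alternatives covered the pseudocount, filter, normalization, replicate block, array weights, arrays in the fit, control group and left-out arrays.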

Additional observations from a re-analysis of the deposited data

How the results depend on the processing

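All 8 tests missed the adjusted threshold in the main setting, and the alternatives moved some past it. With array quality weights the adjusted p was 0.0113 for AT4G30450 with PPBo (0.76), 0.00798 for it on adding IAA to PPBo (-0.82), 0.00172 for AT4G30460 with 100 nM IAA (-0.70) and 0.0286 for it on adding IAA to PPBo (-0.66). With replicates 4 and 5 alone these were 0.0267, 0.0145, 0.0376 and 0.0447. With only the groups of the contrast they were 0.0278, 0.0108 and 0.0292 for the first 3. Without the third 1 µM IAA array AT4G30450 on adding IAA to PPBo reached 0.0272. The replicate block gave it 0.0359 at the same -0.82 and changed no other call, while calls over all probe sets went from 57 to 75 with 100 nM IAA and from 104 to 130 on adding IAA to PPBo. The pseudocounts, the filters, quantile normalization and the pooled mock control changed no call and no sign. Replicates 4 and 5 alone called 311 probe sets with 100 nM IAA, 391 with PPBo (58 in the main setting), 659 with PPBo plus IAA against mock (156) and 409 on adding IAA to PPBo; array quality weights called 470, 287, 655 and 253. The fit without the third IAA array called 118 with PPBo and 265 with PPBo plus IAA.

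Leaving out 1 array at a time, where a lone array is assumed to vary like the other groups, kept the sign of all but AT4G30450 with 100 nM IAA (-0.32 to 0.10, turned without mock replicate 4) and with PPBo plus IAA against mock (-0.28 to 0.14, turned at 0.14 without mock replicate 4 and at 0.11 without PPBo plus IAA replicate 5). AT4G30450 ranged from 0.55 to 0.97 with PPBo and from -0.995 to -0.65 on adding IAA to PPBo, and AT4G30460 from -0.85 to -0.56 with 100 nM IAA and from -0.81 to -0.51 on adding IAA to PPBo. AT4G30460 ranged from 0.18 to 0.48 with PPBo and from -0.47 to -0.19 with PPBo plus IAA against mock (-0.19 without mock replicate 4), and with kynurenine AT4G30450 ranged from 0.05 to 0.25 and AT4G30460 from 0.08 to 0.21. Of the values without a test, repeated under alternatives chosen after seeing the data, AT4G30460 with 1 µM IAA went to -1.24 with array quality weights, in which the third array counted 0.0608 against 0.409 or more for the others. Background could not be judged without detection calls.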
